A study of Mus musculus with 6 samples.

Results

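The vacuolar proton pump (V-ATPase) and the proteins of the lysosomal membrane were followed through the transcripts that encode them in primary mouse embryonic fibroblasts (MEFs) with and without loss of Kansl1. Genes were taken by name: every symbol that begins with Atp6v, and 22 further symbols of pump accessory proteins, lysosomal membrane glycoproteins, ion channels, transporters and other membrane proteins. Of 26898 genes in the table, 42 matched, and 38 of these had a mean over all samples of at least 1 TPM. TPM is a length-corrected level, from reads per base of a gene's merged exons, and adds up to the same total in each sample. The remaining 4 were Atp6v0a4, Atp6v0d2, Atp6v1b1 and Atp6v1c2. The lowest mean kept was that of Atp6v1g2, at 1.60 TPM, and the highest mean left out was that of Atp6v0a4, at 0.289 TPM. All 38 genes had a mean above 1 TPM in both groups, so none was kept through one group alone.

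Cells came from C57BL/6 embryos and were used at passage 3. The WT group was Kansl1 fl/fl, in which both Kansl1 alleles are flanked by recombination sites. The KO group was Kansl1 fl/fl/CAG-cre, with the same alleles and a Cre recombinase under the broadly active CAG promoter that tamoxifen switches on. Both groups received 1 μM tamoxifen for 48 h in medium that held 10% serum per the labels, where the study's methods state a larger share for MEF culture, and each had 3 samples, WT 4, 5 and 8 and KO 3, 7 and 10, which the study counts as separate mice. Cre was present in the KO group alone, so effects of Cre and of Kansl1 loss cannot be told apart. The comparison asks how the transcripts of the acidification machinery and of the lysosomal membrane differ once Kansl1, a part of the NSL histone acetyltransferase complex, is reduced.

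The V-ATPase acidifies lysosomes, endosomes and the Golgi by coupling ATP hydrolysis to proton transport. Its cytosolic V1 sector (subunits A to H) binds and hydrolyses ATP, and its membrane V0 sector (subunits a, c, c″, d and e) carries the protons across the membrane. Several subunits are encoded by paralogous genes with different tissue distributions. The acid lumen in turn depends on chloride and cation channels, on heavily glycosylated membrane proteins that line the lysosome, and on transporters that export the products of digestion, many of which are mutated in lysosomal storage diseases.

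Reads assigned to genes, recovered from the TPM steps, numbered 22812595 to 24263082 in WT and 17655495 to 27718259 in KO, with the lowest number in KO 3. Kansl1 itself stood at 28.5, 26.7 and 24.4 TPM in WT and at 13.7, 15.8 and 14.4 TPM in KO, 55.1% of WT (log2 fold change -0.82, limma adjusted p = 0.000859), and without KO 10 its adjusted p was 0.00608. All 10 fibroblast markers were detected, with a lowest mean of 5.32 TPM, and none passed the thresholds. Summed, they amounted to 7448, 11580 and 10020 TPM in WT and 8442, 11140 and 10540 TPM in KO, lowest in WT 4. Of 11 tested macrophage or osteoclast markers, 10 were higher in every KO sample than in any WT sample (all tested genes: 13.3%). The thresholds called 2 of them higher (all tested genes: 1.64%), Lyz2 at 327% of WT (limma adjusted p = 0.00141) and C1qc at 397% (adjusted p = 0.00251). Their summed level, over 13 markers, ranged from 82.9 to 121.6 TPM in WT and from 148.9 to 269.5 TPM in KO. Most of that sum came from Lyz2 (means 22.5 TPM in WT and 73.6 TPM in KO) and from Ctsk, the one tested marker whose groups overlapped (62.3 and 72.6 TPM). The pan-leukocyte gene Ptprc did not exceed 0.257 TPM in any sample. That value was in KO 10, the sample with the highest marker sum, and WT samples held at most 0.0921 TPM. KO 7 was the single library with Xist (117 TPM) and with 0 for 4 Y-linked genes. In bulk samples, fewer cells of a type and less RNA per cell cannot be told apart.

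Promoter sequence was read for 30 of the 38 genes from RefSeq windows on GRCm38.p6, each 250 bases before to 50 after a transcription start. The search was for the 6 letters CACGTG, the core of the E-box that basic helix-loop-helix factors such as the lysosomal regulator TFEB recognise. The motif reads the same on both strands. It was present in 8 of the 30 genes (26.7%): Atp6v0b, Atp6v0d1, Atp6v0e, Atp6v1a, Clcn7, Cln3, Lamp1 and Mcoln1. Among all tested genes with a window it was present in 1136 of 9565 (11.9%). Of the genes with the motif, Atp6v0e, Atp6v1a, Clcn7 and Cln3 overlapped between groups. Atp6v0b, Atp6v0d1, Lamp1 and Mcoln1 were higher in every KO sample. So were Atp6v0c, Atp6v1d, Atp6ap2 and Lamp2, whose windows held no copy. None of the 5 genes that fell in KO (Atp6v0e2, Gpr89, Tmem9, Tpcn2 and Ostm1) held these letters in any of their windows. Of 25 genes that were not called 8 did (32.0%), beside the 11.9% of all tested genes. This difference was not tested, it rests on 5 genes, and 2 of these (Tpcn2 and Ostm1) lost their call when any one sample was left out. A single RefSeq window was given for Ostm1, 95094 bases inside the annotated gene, and a window of Atp6v0e lies 13165 bases and that of Cd63 8356 bases inside theirs. The windows of Tmem9, another of the genes that fell, lie 69, 9851 and 10006 bases inside the gene. The longer CLEAR consensus of TFEB, which contains the first motif, was found in Cln3 alone among the 30 genes, and in 79 of the tested genes (0.83%). A match is a description of the letters and not a bound site, and a missing match says only that the letters are absent from that window.

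The 250 bases before the start are printed 5′ to 3′ for the 4 genes with repeated copies there and for 3 of the genes that fell. Tmem9 and Ostm1, which also fell and held no copy, are not printed. No link between these letters and the levels was tested. Capitals mark CACGTG, and positions count back from the start site, with the last printed base at -1. Lamp1 (chr8:13158911-13159160, plus strand) held 4 copies, at -61, -45, -28 and -15. Atp6v0b (chr4:117887330-117887579, minus strand) held copies at -36 and -18, and Mcoln1 (chr8:3500269-3500518, plus strand) at -71 and -45. Cln3, whose levels overlapped between the groups, held copies at -149 and -121 in 1 of its 2 windows (chr7:126583237-126583486, minus strand). Atp6v0e2 (chr6:48537319-48537568, plus strand), Gpr89 (chr3:96905299-96905548, minus strand) and Tpcn2 (chr7:145284012-145284261, minus strand) held none.
Lamp1: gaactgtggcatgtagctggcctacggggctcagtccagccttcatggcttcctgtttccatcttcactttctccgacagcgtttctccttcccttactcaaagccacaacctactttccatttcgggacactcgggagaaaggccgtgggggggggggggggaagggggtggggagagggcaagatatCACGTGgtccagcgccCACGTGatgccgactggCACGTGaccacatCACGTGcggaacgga
Atp6v0b: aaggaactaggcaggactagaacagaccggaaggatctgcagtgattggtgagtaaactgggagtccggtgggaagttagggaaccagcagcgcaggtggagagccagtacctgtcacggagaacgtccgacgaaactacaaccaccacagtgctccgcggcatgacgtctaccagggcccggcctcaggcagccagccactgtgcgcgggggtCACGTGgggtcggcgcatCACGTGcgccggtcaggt
Mcoln1: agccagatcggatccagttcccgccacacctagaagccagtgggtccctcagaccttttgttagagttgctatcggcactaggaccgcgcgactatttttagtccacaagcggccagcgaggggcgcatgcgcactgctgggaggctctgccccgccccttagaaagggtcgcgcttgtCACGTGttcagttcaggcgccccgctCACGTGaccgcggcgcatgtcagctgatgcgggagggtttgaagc
Cln3: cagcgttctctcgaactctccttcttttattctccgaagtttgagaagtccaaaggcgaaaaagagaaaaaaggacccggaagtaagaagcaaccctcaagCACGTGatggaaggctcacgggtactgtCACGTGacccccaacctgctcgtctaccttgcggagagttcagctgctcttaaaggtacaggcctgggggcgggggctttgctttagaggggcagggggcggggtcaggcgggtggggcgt
Atp6v0e2: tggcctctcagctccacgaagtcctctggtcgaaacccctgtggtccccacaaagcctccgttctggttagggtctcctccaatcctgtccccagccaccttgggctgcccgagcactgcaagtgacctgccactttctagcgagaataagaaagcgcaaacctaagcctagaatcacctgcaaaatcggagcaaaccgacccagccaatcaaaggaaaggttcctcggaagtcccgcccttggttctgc
Gpr89: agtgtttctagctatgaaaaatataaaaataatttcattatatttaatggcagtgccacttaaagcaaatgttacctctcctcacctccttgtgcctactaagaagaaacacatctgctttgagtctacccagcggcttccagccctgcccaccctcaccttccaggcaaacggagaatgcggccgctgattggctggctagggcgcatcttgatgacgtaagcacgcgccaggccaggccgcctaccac
Tpcn2: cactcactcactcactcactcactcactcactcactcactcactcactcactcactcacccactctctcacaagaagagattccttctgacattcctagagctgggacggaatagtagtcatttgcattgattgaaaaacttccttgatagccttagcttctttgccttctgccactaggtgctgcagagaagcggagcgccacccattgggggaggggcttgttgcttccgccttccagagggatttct

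In KO cells, 5 of the 38 genes fell and none rose at a limma adjusted p under 0.005 and a log2 fold change beyond 0.5. These are the cut-offs of the study, which set them on DESeq2 results. They were Atp6v0e2, an isoform of V0 subunit e, Gpr89 and Tmem9, both linked to luminal acidification, Tpcn2, a lysosomal cation channel, and Ostm1, the partner of the chloride-proton exchanger ClC-7. With any one sample left out 3 of these calls held, those of Atp6v0e2, Gpr89 and Tmem9, and the same 3 were called with no filter on low genes or no variance trend. Across all 14799 tested genes the same thresholds called 9.03% lower and 1.64% higher, 10.7% in either direction. The share of the 38 genes called lower, 13.2%, lay near that background. The largest falls were those of Gpr89, to 12.6% of WT, Atp6v0e2, to 13.2%, and Tmem9, to 26.6%.

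The other 33 genes did not pass. For 25 of them the 95% interval of the log2 fold change lay wholly within 0.5 of 0. The median log2 fold change of the 38 genes was 0.015 (all tested genes: -0.069). Without regard to fold size, 8 genes (21.1%) were lower in every KO sample than in any WT sample and 9 (23.7%) were higher in every KO sample, where 29.9% and 13.3% of all tested genes were so placed (43.2% in either direction). With the TPM rescaled by median of ratios 2 genes, Atp6v1b2 and Lamp1, were called higher and the same 5 lower (all tested genes: 3.2% and 9.73%), and limma-voom on recovered reads called 2 higher and 6 lower (all tested genes: 4.34% and 12.2%). At an adjusted p under 0.05 with no fold limit, 6 genes were lower and 5 higher (15.8% and 13.2%, beside 20.7% and 7.14% of all tested genes).

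**Figure D1:**
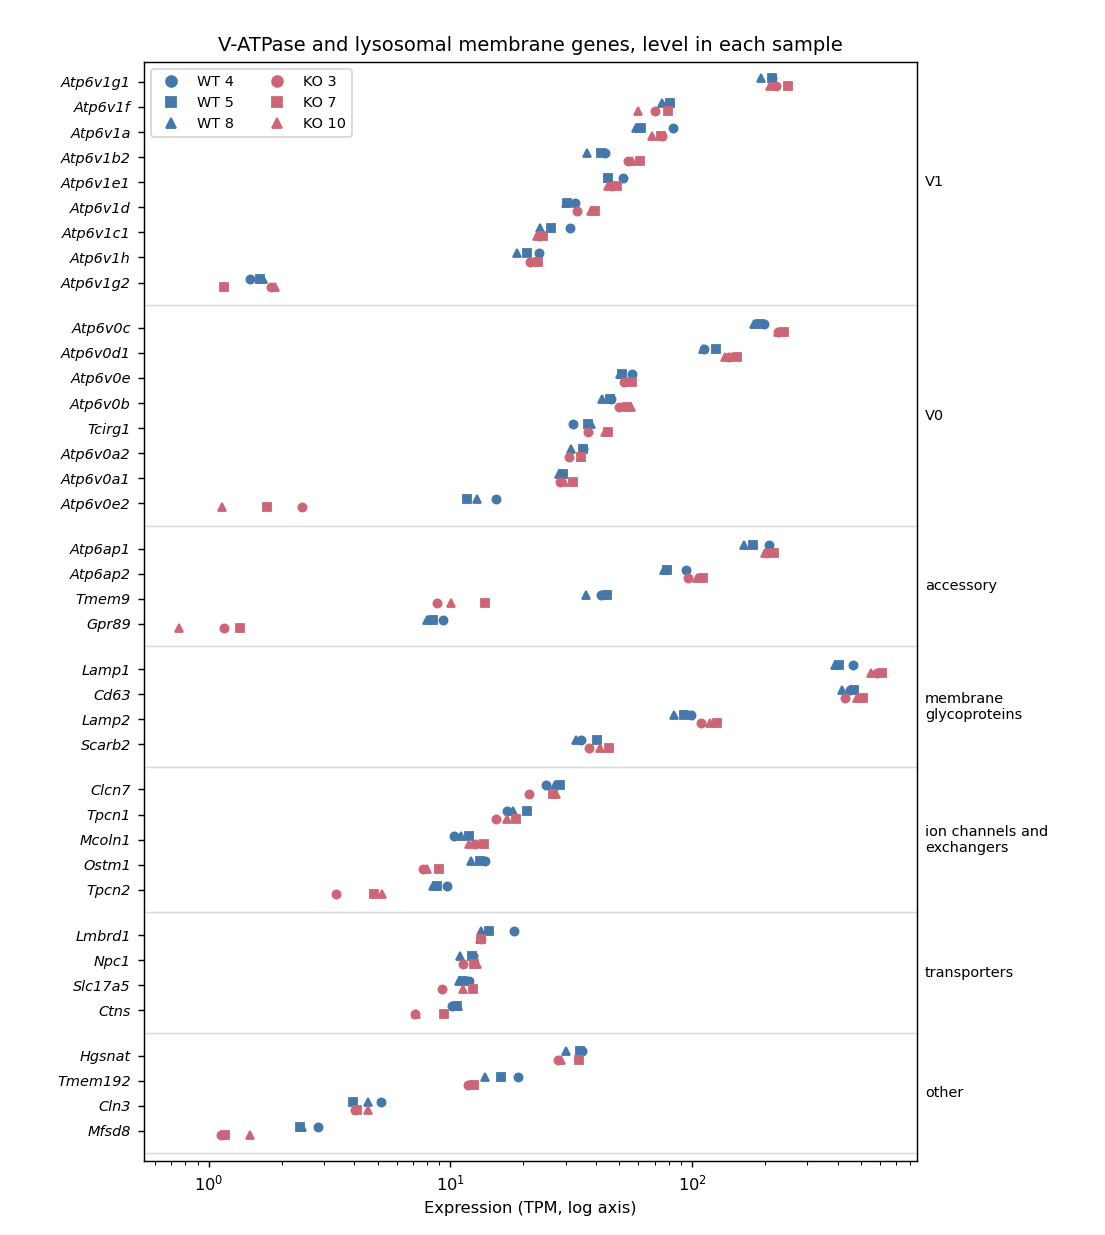
Expression of the 38 genes in each of the 6 samples, in TPM on a log axis, grouped by role and ordered by mean within each role. Blue marks stand for WT and red marks for KO. Atp6v0e2, Gpr89 and Tmem9 are widely separated between groups, with every KO sample far to the left of WT, whereas most pump subunits lie close together.

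**Figure D2:**
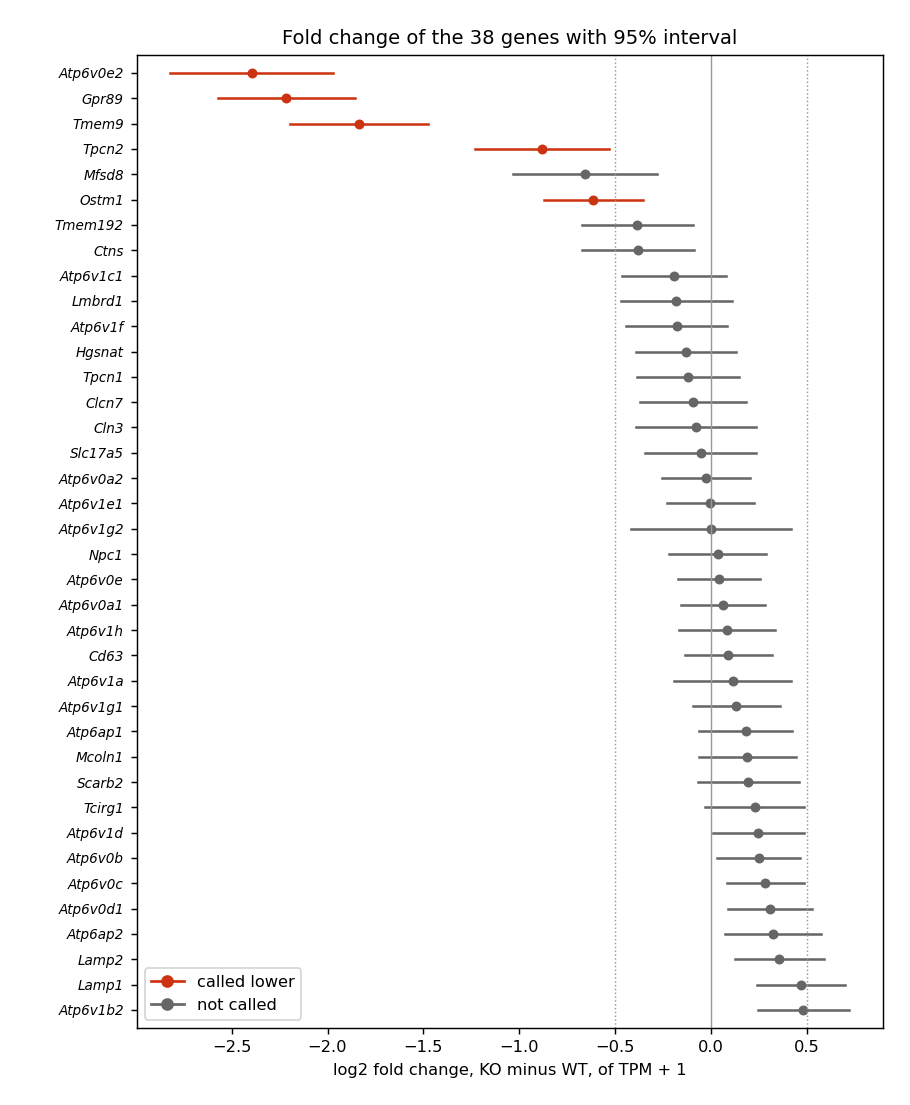
Log2 fold change of TPM + 1, KO minus WT, for the 38 genes, with the 95% interval from limma as a bar. Dotted lines mark 0.5 and -0.5, the fold limit. The 5 genes called lower are in red and the estimates of the other genes run from -0.66 (Mfsd8) to 0.48 (Atp6v1b2).

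The 38 genes were also divided by their mean over all 6 samples, at the median of 30.6 TPM, after the values had been seen. All 5 falls lay among the 19 genes below it and none among the 19 above. That mean includes the KO values, so a fall itself lowers it. By its WT mean of 41.0 TPM, Tmem9 lay above the cut (25.96 TPM over all samples). Gpr89, Tpcn2, Ostm1 and Atp6v0e2 lay below it by WT mean as well (8.6 to 13.3 TPM). By WT mean the falls were therefore not confined to genes below the cut. Of the 9 genes that were higher in every KO sample, 8 lay above the cut. All tested genes were called lower more often below that level (10.9%) than above it (3.84%) as well, while the shares with every KO sample higher were 12.4% below and 15.6% above.

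The V1 sector comprised 9 genes and none passed the thresholds. Their log2 fold changes ran from -0.19 (Atp6v1c1) to 0.48 (Atp6v1b2) with a median of 0.083. The most abundant was Atp6v1g1, encoding the peripheral stalk subunit G1, at 213, 215 and 194 TPM in WT and 223, 248 and 211 TPM in KO. These ranges overlapped (log2 fold change 0.13, 95% interval -0.09 to 0.36), and 19.15% of the 50-base stretches of Atp6v1g1 occur in other transcripts, mainly of Gm13453. Its near-absent paralogue Atp6v1g2, an isoform known from neurons, measured 1.48, 1.64 and 1.68 TPM in WT and 1.81, 1.15 and 1.87 TPM in KO, so Atp6v1g1 made up 99.1% to 99.5% of the subunit G transcripts in all samples. The catalytic subunit A gene Atp6v1a measured 83.5, 61.4 and 58.8 TPM in WT and 74.8, 74.5 and 68.5 TPM in KO, with the groups overlapping. WT 4 was the highest of all samples for that gene.

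Atp6v1b2, which encodes the B2 subunit that forms the hexameric head together with subunit A, had the highest estimate of the whole set. It measured 43.7, 42.1 and 36.7 TPM in WT and 54.2, 61.1 and 56.6 TPM in KO. Every KO sample was above every WT sample, and the KO mean was 140% of WT. The log2 fold change of 0.48 (SE 0.11, 95% interval 0.24 to 0.72) was just inside the fold limit, with a limma adjusted p of 0.00876. With the TPM rescaled by median of ratios it was called, at 0.58 (adjusted p = 0.000466), and over the alternatives its adjusted p ran from 8.21e-05 to 0.0405. Its paralogue Atp6v1b1 did not exceed 0.126 TPM. Atp6v1d, the central rotor subunit, was also higher in every KO sample (32.9, 30.4 and 30.0 TPM in WT, 33.5, 39.6 and 38.3 TPM in KO) without passing (0.25, adjusted p = 0.1125). The other members of the sector (Atp6v1c1, Atp6v1e1, Atp6v1f and Atp6v1h) overlapped between groups, and Atp6v1c1 made up at least 98.2% of subunit C. Atp6v1f shares 11.2% of its 50-base stretches with other transcripts.

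The V0 sector comprised 8 genes, of which 1 fell. Atp6v0e2 (chr6:48537615-48541801, plus strand, mm10, ENSMUSG00000039347.7) encodes a small membrane subunit e of the proton channel. It measured 15.5, 11.7 and 12.8 TPM in WT and 2.42, 1.73 and 1.13 TPM in KO, where the lowest WT sample stood well above the highest KO sample. These levels rested on 299, 244 and 290 reads in WT and 42, 40 and 24 reads in KO. The mean went from 13.3 ± 1.95 TPM (SD, n = 3) to 1.76 ± 0.649 TPM, and the log2 fold change was -2.39 (SE 0.19, 95% interval -2.82 to -1.97, limma adjusted p = 0.000146). The call held when any single sample was left out, with estimates between -2.56 and -2.22.

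The other gene for subunit e, Atp6v0e, was not called and its groups overlapped. It measured 56.2, 51.3 and 50.1 TPM in WT and 52.4, 56.4 and 53.1 TPM in KO (log2 fold change 0.04, 95% interval -0.17 to 0.25). Atp6v0e2 therefore made up 21.6%, 18.6% and 20.4% of the subunit e transcripts in WT and 4.42%, 2.98% and 2.08% in KO. Such shares, and sums over genes, depend on the merged exon length of each gene, here 2381 bases for Atp6v0e2 and 3712 for Atp6v0e. The expressed transcripts may be shorter. The mean share fell by 17.0 percentage points, from 20.2% ± 1.54 to 3.16% ± 1.18 (SD, n = 3), with complete separation of the groups. An exact two-sided permutation test gave p = 0.1, the smallest that 3 samples against 3 allow, so the share itself could not pass 0.05.

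Subunit a, which anchors the V0 sector and sets where in the cell the pump resides, was split among 3 paralogues. Atp6v0a1 measured 28.9, 29.2 and 28.3 TPM in WT and 28.5, 32.3 and 29.6 TPM in KO. Atp6v0a2 measured 35.2, 35.4 and 31.6 TPM in WT and 30.9, 34.7 and 34.6 TPM in KO. Tcirg1, the a3 isoform of lysosomes and of the osteoclast border, measured 32.1, 37.0 and 38.03 TPM in WT and 37.2, 45.0 and 43.8 TPM in KO. None of these genes passed, and the ranges of each overlapped between groups. As shares of subunit a, Atp6v0a1 held 29.1% in WT and 28.5% in KO (exact permutation p = 0.5), Atp6v0a2 held 34.5% and 31.6% (p = 0.1 by the exact test, the smallest possible), and Tcirg1 held 36.1% and 39.6% (exact permutation p = 0.2). The share of Atp6v0a2 did not overlap between groups, at 36.5%, 34.8% and 32.2% in WT and 31.9%, 30.9% and 32.0% in KO, though the gap was small. Without WT 4 the differences of Atp6v0a2 and Tcirg1 went from -2.92 and 3.50 points to -1.92 and 2.08 points, and that of Atp6v0a1 went from -0.69 to -0.27 points without WT 4 and to -0.14 points without KO 10. The kidney isoform Atp6v0a4 reached at most 0.484% of subunit a.

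The remaining V0 genes were higher in KO without passing the thresholds. Atp6v0c, the proteolipid of the rotating ring and the most abundant gene of the sector, measured 199, 192 and 181 TPM in WT and 228, 241 and 227 TPM in KO (0.28, limma adjusted p = 0.0410). Atp6v0d1, which couples the ring to the central stalk, measured 112, 126 and 111 TPM in WT and 142, 153 and 137 TPM in KO (0.31, adjusted p = 0.0422). Atp6v0b, the second ring proteolipid, measured 46.3, 45.5 and 42.5 TPM in WT and 50.1, 54.0 and 56.0 TPM in KO (0.25, adjusted p = 0.0850). For all 3 genes each KO sample exceeded each WT sample. Atp6v0d2, the paralogue of Atp6v0d1, did not exceed 0.114 TPM. The value of Atp6v0c is uncertain, since 10.8% of its 50-base stretches occur in other transcripts, mainly in the processed pseudogene Atp6v0c-ps2 (chr6:37806086-37806550, plus strand, mm10). That pseudogene was itself listed at 409, 432 and 388 TPM in WT and 477, 501 and 460 TPM in KO.

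Summed over its genes, the V0 sector amounted to 524.8, 527.7 and 496.0 TPM in WT and 570.8, 617.8 and 583.0 TPM in KO, which did not overlap. The largest part came from Atp6v0c (means 190.5 TPM in WT and 231.8 TPM in KO), whose value is uncertain. Next was Atp6v0d1 (116.4 and 144.0 TPM), while Atp6v0a1, Atp6v0a2, Atp6v0e and Tcirg1 each overlapped between groups. The macrophage or osteoclast markers were also higher in KO (summed mean 108.1 TPM in WT and 200.6 TPM in KO), and their part in the V0 difference was not tested. The V1 sector amounted to 561.8, 523.3 and 483.2 TPM in WT and 548.9, 600.8 and 525.8 TPM in KO, which did overlap. With Atp6v0e2 set aside, the other 16 pump subunit genes had log2 fold changes from -0.19 to 0.48 with a median of 0.097. Of these, 11 were above 0 on the TPM as deposited, as were 6308 of all 14799 tested genes. With rescaling by median of ratios Atp6v1e1 (0.098), Atp6v1g2 (0.065) and Atp6v0a2 (0.075) turned above 0 as well.

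Among the 4 accessory genes, 2 fell and 2 did not pass. Gpr89 (chr3:96868281-96905346, minus strand, mm10, ENSMUSG00000028096.13) encodes the Golgi pH regulator, a membrane protein needed for acidification of the Golgi. It measured 9.36, 8.502 and 7.98 TPM in WT and 1.15, 1.35 and 0.752 TPM in KO, on 407, 400 and 406 reads in WT and 45, 70 and 36 reads in KO. Every KO sample was far under every WT sample, and the log2 fold change was -2.21 (SE 0.16, 95% interval -2.57 to -1.86, limma adjusted p = 0.000126). Its exons share 1333 of 5365 bases with Pdzk1 and 165 bases with Gja5, both on the opposite strand, and whether reads were counted by strand was not given in the sources used here. Without strand, reads from these stretches cannot be told apart, and 23.8% of its 50-base stretches occur in other transcripts, mainly of Pdzk1.

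Tmem9 (chr1:136008150-136035342, plus strand, mm10, ENSMUSG00000026411.17) encodes a lysosomal membrane protein that binds the accessory subunit Atp6ap2 and promotes pump assembly. It measured 42.2, 44.3 and 36.6 TPM in WT and 8.78, 13.9 and 10.0 TPM in KO, and the groups were clearly apart. The reads behind these values were 932, 1059 and 945 in WT and 174, 368 and 244 in KO. The mean went from 41.0 ± 4.00 TPM to 10.9 ± 2.69 TPM (SD, n = 3), a log2 fold change of -1.84 (SE 0.16, 95% interval -2.20 to -1.48, limma adjusted p = 0.000184). No 50-base stretch of Tmem9 was shared with another gene, and the calls of both Tmem9 and Gpr89 held when any single sample was left out.

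The accessory subunits that are built into the pump did not pass. Atp6ap1, the most abundant gene of the accessory group, measured 208, 179 and 165 TPM in WT and 204, 218 and 201 TPM in KO (0.18, limma adjusted p = 0.247). Atp6ap2, the prorenin receptor, measured 94.8, 78.8 and 76.5 TPM in WT and 96.4, 111 and 104.9 TPM in KO (0.32, adjusted p = 0.0597). Both genes are X-linked, and without KO 7, the library with Xist, the estimates were 0.15 (adjusted p = 0.441) and 0.27 (adjusted p = 0.161).

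None of the 4 lysosomal membrane glycoproteins passed, and all 4 estimates were above 0, with a median of 0.27. Lamp1, the most abundant gene of the whole set and a principal component of the lysosomal coat, measured 464, 406 and 391 TPM in WT and 583, 611 and 548 TPM in KO. Every KO sample exceeded every WT sample, and the KO mean was 138% of WT. Its log2 fold change was 0.47 (SE 0.10, 95% interval 0.24 to 0.70, limma adjusted p = 0.00839), under the fold limit. Rescaled by median of ratios it was called, at 0.57 (adjusted p = 0.00209), and over the alternatives its adjusted p ran from 0.000424 to 0.0417. Of its exons 249 bases overlap Grtp1 on the opposite strand.

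Lamp2, whose isoforms serve lysosome fusion and chaperone-mediated autophagy, measured 98.8, 93.0 and 84.5 TPM in WT and 109, 127 and 118.5 TPM in KO, again without overlap. Its log2 fold change was 0.35 (limma adjusted p = 0.0306), and 0.30 without KO 7 (adjusted p = 0.0943). Cd63, a tetraspanin of late endosomes, measured 450.5, 467 and 417 TPM in WT and 430.0, 512 and 479 TPM in KO, where the groups overlapped (0.09), and it shares 11.1% of its 50-base stretches, mainly with the pseudogene Cd63-ps. Scarb2, the receptor that carries glucocerebrosidase to the lysosome, overlapped too (0.19, adjusted p = 0.249). The summed macrophage markers given above were higher in KO as well, and their part in these values was not tested.

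Of the 5 ion channel and exchanger genes, 2 fell. Tpcn2 (chr7:145186524-145284011, minus strand, mm10, ENSMUSG00000048677.9) encodes a sodium and calcium channel of endolysosomes gated by PI(3,5)P2 and by NAADP signalling. It measured 9.65, 8.83 and 8.49 TPM in WT and 3.38, 4.83 and 5.22 TPM in KO, with every KO sample lower, on 411, 407 and 423 reads in WT and 129, 246 and 245 reads in KO. The KO mean was 49.8% of WT and the log2 fold change was -0.88 (SE 0.16, 95% interval -1.23 to -0.53, limma adjusted p = 0.00301). When any one of the 6 samples was left out the gene no longer passed, with adjusted p from 0.0063 to 0.0112 and estimates from -0.98 to -0.73. Its paralogue Tpcn1 was not called, at 17.1, 20.7 and 18.2 TPM in WT and 15.5, 18.6 and 17.2 TPM in KO (-0.12, 95% interval -0.39 to 0.15). The difference between the paralogues was not tested.

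Ostm1 (chr10:42583822-42702459, plus strand, mm10, ENSMUSG00000038280.12) encodes the glycosylated subunit without which ClC-7 is unstable, and its loss causes osteopetrosis. It measured 13.9, 13.2 and 12.1 TPM in WT and 7.72, 8.93 and 7.98 TPM in KO, on 814, 836 and 830 reads in WT and 405, 624 and 514 reads in KO. All KO samples were below all WT samples, at 62.7% of the WT mean (log2 fold change -0.61, SE 0.12, 95% interval -0.87 to -0.36, limma adjusted p = 0.00411). As for Tpcn2, leaving out any one of the 6 samples ended the call, with adjusted p from 0.00845 to 0.0260 and estimates from -0.67 to -0.57. The exchanger gene itself, Clcn7, measured 24.9, 28.4 and 27.0 TPM in WT and 21.2, 26.6 and 27.4 TPM in KO, with overlap (-0.10, 95% interval -0.37 to 0.18). Mcoln1, the TRPML1 calcium channel, measured 10.3, 11.9 and 11.1 TPM in WT and 12.6, 13.8 and 12.0 TPM in KO (0.19, adjusted p = 0.250). These Mcoln1 groups did not overlap, but the highest WT and the lowest KO sample were almost equal.

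None of the 4 transporter genes passed. Lmbrd1, which takes part in the export of vitamin B12, was the most abundant, at 18.4, 14.4 and 13.4 TPM in WT and 13.4, 13.4 and 13.2 TPM in KO, where WT 4 stood apart from the other samples. Ctns, the cystine exporter mutated in cystinosis, was lower in every KO sample, at 10.2, 10.7 and 10.7 TPM in WT and 7.14, 9.37 and 7.20 TPM in KO, 75.1% of WT (log2 fold change -0.38, limma adjusted p = 0.0547). Npc1, the cholesterol exporter of Niemann-Pick disease type C, and Slc17a5, the sialic acid exporter, overlapped between groups with estimates of 0.03 and -0.05.

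The other 4 membrane genes did not pass, and their estimates were all below 0 on the TPM as deposited, where that of Cln3 turned to 0.006 after rescaling by median of ratios. Mfsd8, the CLN7 protein of neuronal ceroid lipofuscinosis, measured 2.83, 2.39 and 2.44 TPM in WT and 1.125, 1.16 and 1.475 TPM in KO, 49.1% of WT and without overlap. Its log2 fold change of -0.66 (SE 0.17, 95% interval -1.03 to -0.28) exceeded the fold limit, with a limma adjusted p of 0.01705. On the recovered reads it was called, at -0.93 (limma-voom adjusted p = 0.00102), and log2(TPM + 1) understates changes at so low a level. Of its 50-base stretches 11.7% occur in other transcripts. Tmem192 was lower in every KO sample, at 19.0, 16.2 and 13.9 TPM in WT and 11.9, 12.6 and 12.2 TPM in KO (-0.38, adjusted p = 0.0512). Hgsnat, the acetyltransferase of heparan sulphate breakdown, was the most abundant of the 4, at 35.1, 34.4 and 30.0 TPM in WT and 27.7, 34.1 and 28.8 TPM in KO, with overlap (-0.13).

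Genes that act on the pump without being subunits of it were taken from a second list. Of 11 assembly and association factors found, 10 were tested, 3 fell and none rose, where 9.03% of all tested genes were called lower. All 10 estimates were below 0 on the TPM as deposited, with a median of -0.38, as were 8491 of the 14799 estimates of all tested genes, whose median was -0.069. Vma21, the chaperone of V0 assembly in the endoplasmic reticulum, measured 22.5, 18.7 and 16.4 TPM in WT and 10.1, 10.4 and 9.62 TPM in KO (52.2% of WT, log2 fold change -0.86, limma adjusted p = 0.00147). Ccdc115, a second V0 assembly factor, measured 15.2, 16.2 and 15.3 TPM in WT and 8.38, 8.81 and 9.51 TPM in KO (-0.74, adjusted p = 0.00124). Wdr7, a subunit of the Rabconnectin-3 complex that joins V1 to V0, measured 8.04, 8.89 and 7.40 TPM in WT and 4.05, 5.17 and 4.75 TPM in KO (-0.69, adjusted p = 0.00487). For each of these genes all KO samples were lower. Tmem199, the partner of Ccdc115 and the most abundant of the list, did not pass, at 33.3, 34.6 and 30.7 TPM in WT and 31.4, 30.7 and 29.9 TPM in KO (-0.09). Rogdi, a pump-associated protein, was past the fold limit without passing (-0.58, adjusted p = 0.0135). The calls did not hold without single samples: without WT 5, KO 7 or KO 10 none of the list passed, without WT 8 or KO 3 a single gene did, and 2 genes did without WT 4.

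The last list held other proteins of the lysosomal membrane, of which 46 were found and 42 tested. In KO, 7 of the 42 fell and none rose, beside 9.03% lower and 1.64% higher among all tested genes, and the median log2 fold change was -0.15 (all tested genes: -0.069). Among them were 3 of the Ragulator subunits that tether mTORC1 signalling to the lysosome, namely Lamtor5 at 39.8% of WT (-1.30, limma adjusted p = 0.000146), Lamtor4 at 45.6% (-1.08, adjusted p = 0.00064) and Lamtor2 at 59.1% (-0.74, adjusted p = 0.00118). Lamtor5, for example, measured 69.1, 70.95 and 63.9 TPM in WT and 27.1, 29.2 and 24.96 TPM in KO. The other Ragulator subunits, Lamtor1 (0.21, adjusted p = 0.198) and Lamtor3 (-0.20, adjusted p = 0.221), did not pass. The lysophospholipid exporter Spns1 fell to 50.1% (-0.95, adjusted p = 0.00048), the lipid transporter Abca2 to 50.3% (-0.81, adjusted p = 0.00325), the polyamine transporter Atp13a2 to 55.5% (-0.76, adjusted p = 0.0024, but 0.00698 with rescaling by median of ratios) and the sterol transfer protein Stard3 to 62.3% (-0.64, adjusted p = 0.00288). Laptm4a, the most abundant of the list, was higher in every KO sample without passing, at 573, 628 and 565 TPM in WT and 635, 755 and 707 TPM in KO. Past the fold limit with an adjusted p between 0.005 and 0.05 were 4 genes with every KO sample lower and 2 with every KO sample higher. The former were the amino acid sensor Slc38a9 (28.5% of WT, -0.86, adjusted p = 0.00791), Mfsd12 (-0.68, adjusted p = 0.0138), the proton-permeable channel Tmem175 (-0.58, adjusted p = 0.0124) and Tmem106b (-0.57, adjusted p = 0.00999). With a single sample left out, 3 to 5 genes of this list were called lower, fewest without WT 5, KO 3 or KO 10 and 4 without WT 8 or KO 7. The 2 genes with every KO sample higher past the fold limit were Laptm5 (0.98, adjusted p = 0.0212) and Cd68 (0.85, adjusted p = 0.0173), both expressed by macrophages, and Cd68 is one of the macrophage markers whose part was not tested.

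**Figure D3:**
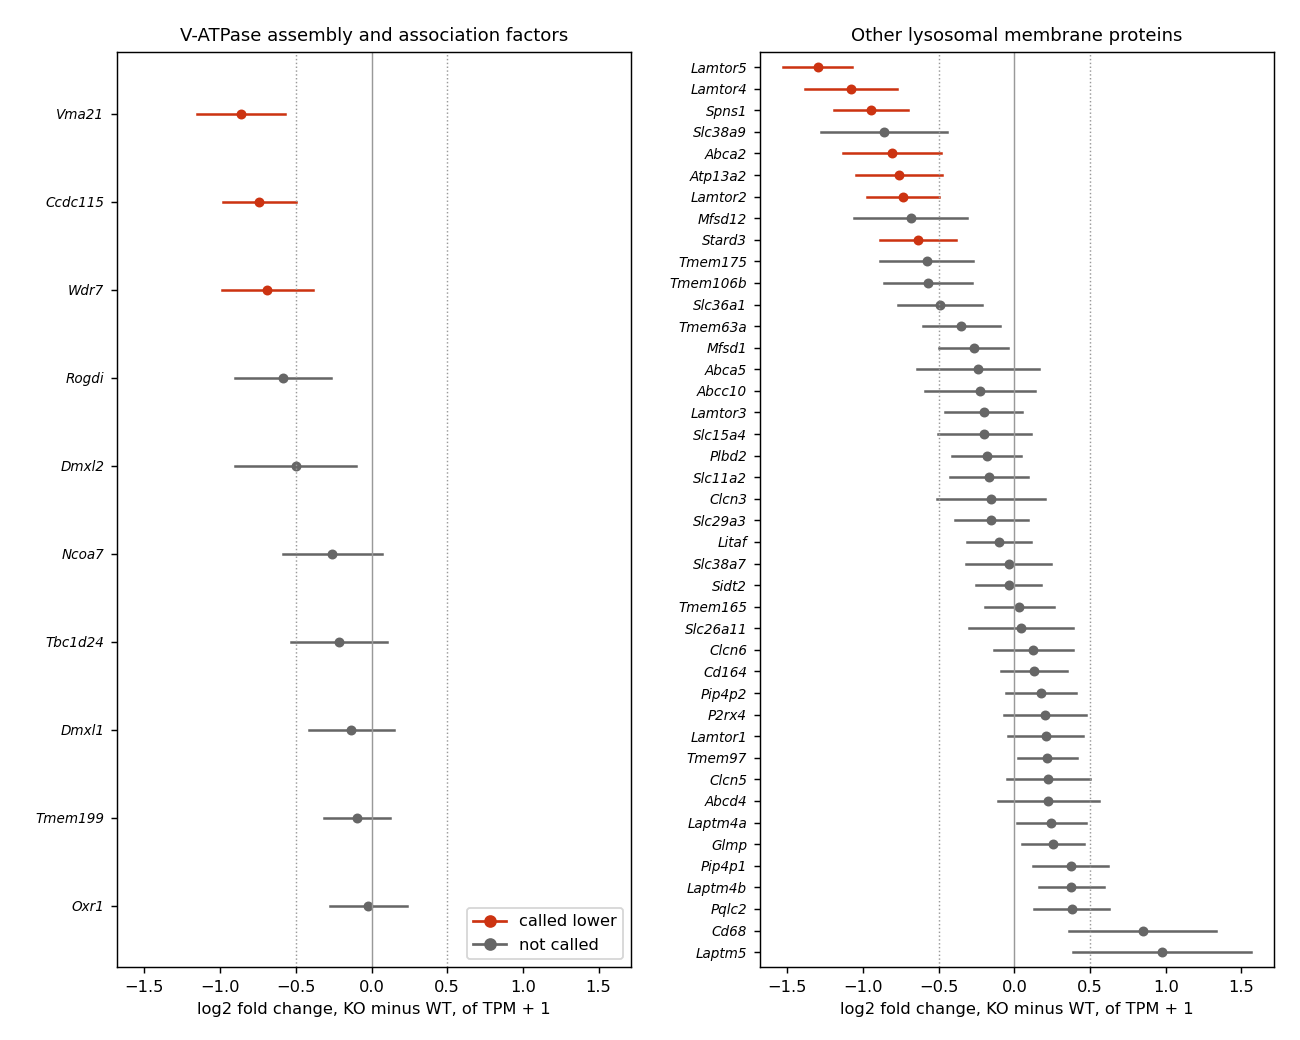
Log2 fold change of TPM + 1, KO minus WT, with the 95% interval from limma as a bar, for 10 V-ATPase assembly and association factors (left) and 42 other lysosomal membrane proteins (right). Red marks genes called lower, 3 on the left and 7 on the right, and dotted lines the fold limit of 0.5 in each direction. All estimates on the left lie below 0, while those on the right run from -1.30 (Lamtor5) to 0.98 (Laptm5).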

How the data were processed

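The authors sequenced RNA of the 6 MEF samples and aligned the reads with STAR to mm10, per the study's methods, while the submitters' processing notes name Bowtie 0.12.2. The counting program and its use of strand are not given in the sources used here. The authors deposited TPM for 26898 genes in 1 table, with a log2 fold change and an adjusted p-value of their own that were not used here. TPM multiplied by merged exon length (GENCODE M21, mm10) gave whole reads for 100.0% of the 13075 to 14313 values of at most 200 reads checked per sample, at a tolerance of 0.05, and whole reads were recovered from these steps.

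Genes with a group mean of at least 1 TPM (14799) were compared on log2(TPM + 1) with limma 3.58.1 in R 4.3.3 (variance trend, 2 groups, no covariate), with Benjamini-Hochberg adjustment over all tested genes. Genes were called at an adjusted p under 0.005 and a log2 fold change beyond 0.5 in either direction, the thresholds of the study. Fold changes on this scale understate the change of low genes. The authors deposited TPM and no counts, so the main test is on TPM, and the recovered reads entered 1 alternative. The alternatives were a pseudocount of 0.1, other filters and thresholds, no variance trend, median-of-ratios scaling, limma-voom on the recovered reads, and leaving out each sample in turn. Paralogue shares were compared by exact permutation over samples, two-sided.

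Symbols were given for 17990 rows of the table, and genes were matched by these. The genes and lists were chosen with earlier results of these data known. Among the 38 genes, values are given for every sample for those called, past the fold limit or at an adjusted p under 0.05, for the most abundant gene of each role and for paralogues. Of the other lists, genes called and the most abundant gene are named, together with genes past the fold limit at an adjusted p under 0.05, added after their values were seen. Other genes are described by range and count, with a few named for their role after their values were seen. Promoter windows are RefSeq sequence on GRCm38.p6, matched by symbol for 30 of 38 genes. Shared sequence was measured as 50-base stretches of GENCODE transcripts found in another gene.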

Additional observations from a re-analysis of the deposited data

How the results depend on the processing

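No paired analysis was possible because no replicate number occurs in both groups. Leaving out any one sample gave 3 called genes of the 38, all 3 lower (Atp6v0e2, Gpr89 and Tmem9), so that Ostm1 and Tpcn2 rest on all 6 samples. No filter on low genes and no variance trend gave the same 3, all lower. A group mean of at least 10 TPM left 33 of the 38 genes tested, without Gpr89 and Tpcn2, and gave 3 called, 3 lower (Atp6v0e2, Tmem9 and Ostm1). Median-of-ratios scaling gave 7 called, 2 higher (Atp6v1b2 and Lamp1) and 5 lower, and limma-voom on recovered reads gave 8 called, 2 higher and 6 lower, the sixth being Mfsd8. Over all tested genes, the count of 1579 (242 higher and 1337 lower) became 341 with no filter, 1503 (1160 lower) with a group mean of at least 10 TPM, 1336 (1149 lower) with no variance trend, 1913 (1440 lower) under median-of-ratios scaling, 3147 at an adjusted p under 0.05 with the fold limit kept, 2441 by voom (642 higher and 1799 lower, or 4.34% and 12.2%), and 589 to 904 with 1 sample left out. The pump assembly factors called lower were 0 with no filter and 0 to 2 with 1 sample left out. The other lysosomal membrane proteins called lower were 2 with no filter, 11 at an adjusted p under 0.05 with the fold limit and 3 to 5 with 1 sample left out, and those called higher were 1 with a group mean of at least 10 TPM, 2 at an adjusted p under 0.05 and 0 to 1 with 1 sample left out. The cause of these shifts was not tested.

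Estimates that changed sign were all close to 0. Under median-of-ratios scaling and voom these were Atp6v1e1 (0.098 and 0.095), Atp6v1g2 (0.065 and 0.032), Atp6v0a2 (0.075 and 0.075), Clcn7 (0.004 and 0.007) and Slc17a5 (0.042 and 0.057), and Cln3 under the former alone (0.006). With 1 sample left out, the estimates ran from -0.041 to 0.064 for Atp6v1e1, -0.079 to 0.13 for Atp6v1g2, -0.078 to 0.025 for Atp6v0a2, -0.162 to 0.015 for Clcn7, -0.143 to 0.057 for Slc17a5 and -0.021 to 0.089 for Npc1. Median-of-ratios scaling moved the median of all tested genes from -0.069 to 0.023 and that of the 38 genes from 0.015 to 0.114. Depth limits the low genes most. Gpr89 and Atp6v0e2 had 24 to 70 reads per KO sample but 244 to 407 per WT sample, and their calls held with any one sample left out. The 3 samples per group, with no batch given in the labels, limit every comparison.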

Other observations

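The 4 genes under 1 TPM encode pump isoforms known from specialised cells, such as acid-secreting cells of the kidney and osteoclasts. Atp6v0a4 lay between 0.184 and 0.470 TPM in all 6 samples. Atp6v0d2, the osteoclast isoform of subunit d, had 0 to 3 reads per sample, and Atp6v1b1 had 0 to 4 reads. Atp6v1c2 had 10 reads in WT 4 (0.568 TPM) and at most 1 read in every other sample, so that a single library held most of its reads.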
